A study of Homo sapiens with 6 samples.

Results

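The ESCRT-III CHMP family was examined in immortalized human cardiomyocytes after knockdown of CIRBP, the cold-inducible RNA-binding protein. The family was taken as the rows of the deposited expression table whose gene name was CHMP1A, CHMP1B, CHMP2A, CHMP2B, CHMP3, CHMP4A, CHMP4B, CHMP4C, CHMP5 or CHMP6, and these are 10 of 58884 genes. The family was chosen by the fall of CHMP1B in this same comparison, one of the clearest there, so the values of its members are given here as a description, without p-values. RNA-seq was performed on 3 libraries from cells treated with negative control siRNA (NC) and 3 from cells treated with siRNA against CIRBP (SiCIRBP). The labels give the line of all 6 libraries as T0519, with no further treatment. The study's text names AC16, a different immortalized line, for this experiment, and which line was sequenced is not resolved here. The medium was Prigrow I with serum. The labels do not say whether the libraries of a group came from separate cultures, so the tests measure the spread between these libraries, which may be technical. The study left NC_1 and SiCIRBP_2 out of its comparison because they stood apart from the other libraries of their groups. NC_2, NC_3, SiCIRBP_1 and SiCIRBP_3 were therefore fitted first, and the left-out libraries are given beside them. The fits over 4 and over 6 libraries share samples.

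ESCRT-III proteins assemble into filaments on the inner face of membrane necks and draw the neck closed, which cuts vesicles into multivesicular endosomes, separates daughter cells at abscission, reseals the nuclear envelope and repairs the plasma membrane. CHMP6 receives the signal from ESCRT-II and starts the filament, CHMP4 proteins form its main body, and CHMP3 and CHMP2 proteins cap it and recruit the ATPase VPS4. CHMP1A, CHMP1B, CHMP5 and IST1 act late, when VPS4 takes the filament apart. In bulk RNA such as this, fewer expressing cells and less RNA per cell cannot be told apart.

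The library totals lay between 25726259 and 29919566 estimated counts. CIRBP was between 85.7 and 90.9 CPM (read count scaled to the normalized library size) in the NC libraries and between 24.3 and 54.7 in the SiCIRBP libraries, lowest in SiCIRBP_2. Of 12 cardiomyocyte markers, 3 (GATA4, ACTN2 and NKX2-5) reached at least 1 TPM in every library and 8 stayed under 1 TPM in all of them. The genes MYH6, MYL2, RYR2 and PLN had no counts in any library, and TNNT2 had at most 1 count. All 6 fibroblast markers reached at least 1 TPM in every library, with summed levels between 3783 and 4038 TPM in the NC group and between 3715 and 5261 TPM in the SiCIRBP group. Most of these sums came from VIM alone, at 2724 to 3663 TPM, while PDGFRB was between 2.09 and 3.05 TPM. The cardiomyocyte markers summed to between 72.5 and 89.6 TPM in the NC group and between 40.9 and 61.1 TPM in the SiCIRBP group. The line thus carried the cardiac transcription factors without most of the contractile genes that define a cardiomyocyte, and the part of these marker differences in the results below was not tested. All 3 endothelial markers stayed under 1 TPM in every library.

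TPM values are scaled by transcript length and allow the members to be set in order. CHMP4B, the main filament subunit, was the most abundant member in every library, with a mean of 149.8 TPM and a range from 144 to 166.5 TPM. CHMP1A and CHMP2A followed, with means of 127 ± 14.8 TPM and 121 ± 16.8 TPM (SD, n = 6). These neighbours did not differ beyond their spread, and they exchanged places between the groups, since CHMP2A was above CHMP1A in all NC libraries and below it in all SiCIRBP libraries. A middle group was made up of CHMP1B (mean 66.1 TPM), CHMP5 (61.55 TPM), CHMP4A (56.3 TPM) and CHMP3 (45.7 TPM), whose ranges overlapped. CHMP6 had a mean of 31.2 TPM and CHMP2B of 16.6 TPM, and CHMP2B was ninth in every library. CHMP4C, which takes part in the abscission checkpoint, was close to absent, with 10, 6 and 2 estimated counts in NC_1, NC_2 and NC_3 and with 3, 63 and 24 in SiCIRBP_1, SiCIRBP_2 and SiCIRBP_3. CHMP4C did not pass the filter on low counts over the 4 libraries, so 9 of the 10 members were fitted there. Over all 6 libraries it passed the filter, but most of its counts lay in SiCIRBP_2 and SiCIRBP_3, and no fold change is given for it. CHMP1B ranged from 30.8 to 112 TPM, and moved between the third and the eighth place.

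**Figure D1:**
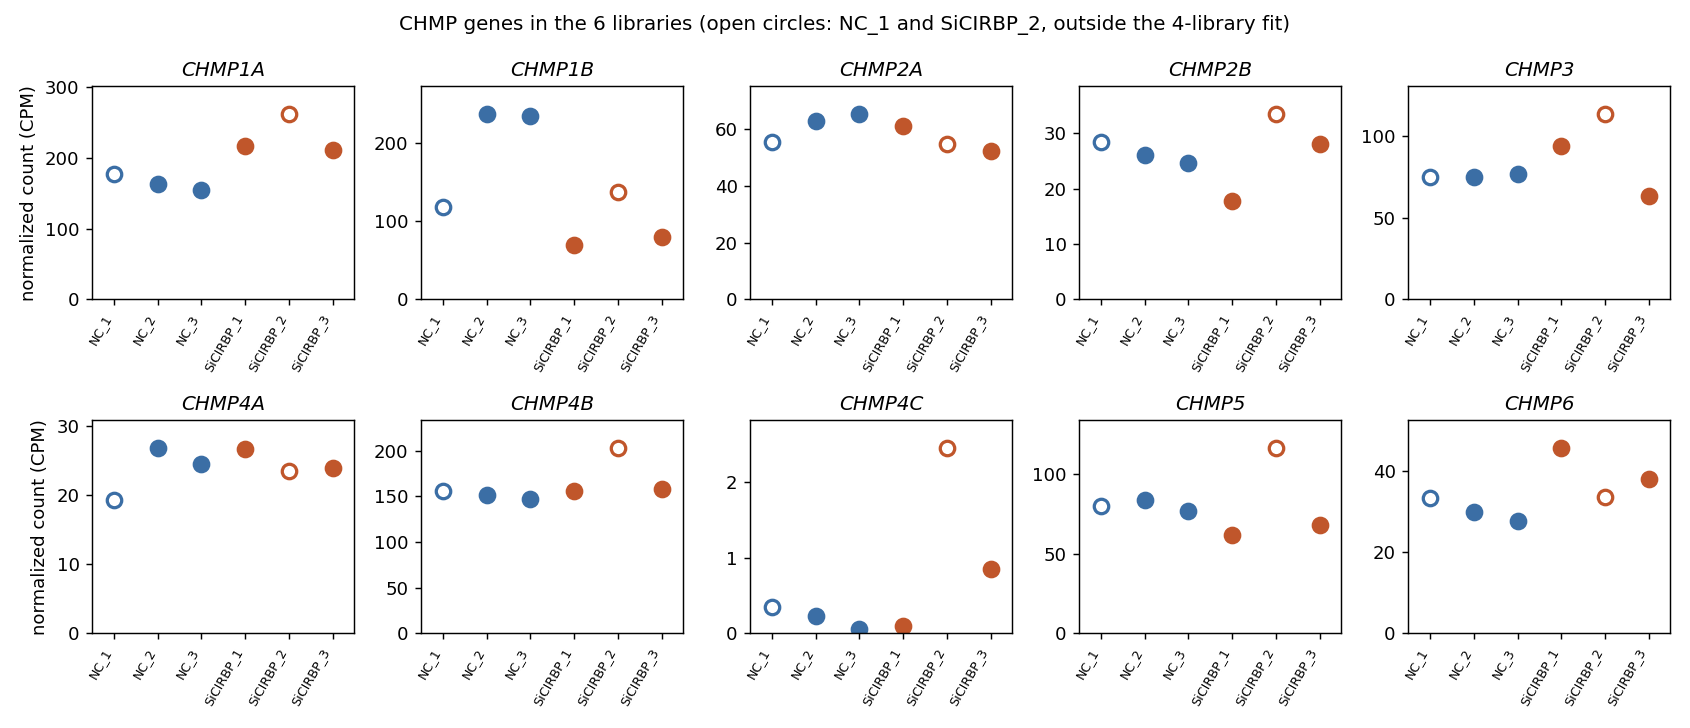
Normalized count (CPM, linear axis from 0) of each CHMP gene in each library, with NC in blue, SiCIRBP in orange and open circles for NC_1 and SiCIRBP_2. CHMP1B was at 237 and 235 CPM in NC_2 and NC_3 but at 118 in NC_1, below the 138 of SiCIRBP_2, whereas all SiCIRBP libraries lay above all NC libraries for CHMP1A.

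CHMP1B, which recruits VPS4 and the microtubule-severing enzyme spastin to late ESCRT-III filaments, was the member with the largest difference. NC_2 and NC_3 held 237 and 235 CPM of CHMP1B, while SiCIRBP_1 and SiCIRBP_3 held 69.6 and 79.7 CPM. The group means were 236 ± 1.48 CPM (SD, n = 2) in these NC libraries and 74.6 ± 7.09 CPM (SD, n = 2) in these SiCIRBP libraries. Over all 6 libraries the means were 197 ± 68.3 CPM and 95.7 ± 36.8 CPM (SD, n = 3 each). The fitted log2 fold change was -1.66 (standard error 0.09), or 3.16-fold lower in the SiCIRBP group, and 111 of the 15421 genes fitted had a lower value. These are the values that led to the choice of the family. The left-out libraries did not share this separation. CHMP1B was at 118 CPM in NC_1, far below the other NC libraries, and at 138 CPM in SiCIRBP_2, so that NC_1 lay below SiCIRBP_2 and the groups overlapped over 6 libraries. Between these libraries alone the log2 difference was 0.23, higher in SiCIRBP_2. In TPM they were level, with 54.35 in NC_1 and 54.36 in SiCIRBP_2, against 109 and 112 in the other NC libraries and 30.8 and 35.4 in the other SiCIRBP libraries. With all 6 libraries the fitted value was -1.04 with a standard error of 0.33, and it was -1.40 with NC_1 alone added and -1.30 with SiCIRBP_2 alone added. SiCIRBP_2 had the lowest CIRBP of all libraries but the highest CHMP1B of its group.

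In GRCh38, CHMP1B occupies bases 11851396 to 11854449 of chromosome 18 (plus strand), with 2 annotated transcripts in GENCODE 29. All 3054 bases lie inside the GNAL gene, which is transcribed in the same direction, and 0 GNAL exons overlap it. The 233 bases of GRCh38 that end at the base before the annotated start (chr18:11851163-11851395, plus strand, from the RefSeq promoter table) are shown because they hold a full cAMP response element, the palindrome TGACGTCA that CREB-family factors can bind, in capitals.
CHMP1B: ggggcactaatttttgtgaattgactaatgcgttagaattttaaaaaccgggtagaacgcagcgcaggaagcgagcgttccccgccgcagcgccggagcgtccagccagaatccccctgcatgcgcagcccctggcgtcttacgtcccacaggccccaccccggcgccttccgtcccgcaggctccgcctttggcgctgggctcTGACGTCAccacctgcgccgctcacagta
The element lies at bases 11851367 to 11851374, its last base 22 bases before the GENCODE start that follows the stretch shown. Counted from the RefSeq start, which lies further downstream, it runs from 46 to 39 bases before. The same 8 letters were found in 1 of the 7 members with an entry in that table (CHMP1A, CHMP1B, CHMP2A, CHMP2B, CHMP4A, CHMP4B and CHMP5) and in 578 of 35116 promoters in all (1.65%), counted over the 250 bases before each start. They read the same on both strands. The match describes the sequence, and binding was not measured.

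The genes around CHMP1B were examined for a shared change. GNAL, a G-protein alpha subunit gene, was between 16.2 and 24.6 CPM in the NC libraries and between 8.04 and 14.8 CPM in the SiCIRBP libraries, without overlap over the 6 libraries. Its log2 fold change over the 4 libraries was -0.91 (standard error 0.26, edgeR adjusted p = 0.0505), short of the threshold, and DESeq2 gave an adjusted p of 0.00296 over the same libraries. Like CHMP1B, GNAL had the lowest value of its group in NC_1 (16.2 CPM), but in SiCIRBP_2 it was also the lowest of its group (8.04 CPM), where CHMP1B was the highest. MPPE1, the nearest protein-coding gene beyond the end of CHMP1B, lies 28172 bases away on the opposite strand. Over the 4 libraries it had a log2 fold change of -0.46 (standard error 0.13, edgeR adjusted p = 0.0527), and DESeq2 gave an adjusted p of 0.0343. MPPE1 was at 24.2, 31.2 and 34.6 CPM in NC_1, NC_2 and NC_3, again lowest of its group in NC_1. In SiCIRBP_1, SiCIRBP_2 and SiCIRBP_3 it was at 21.7, 23.5 and 26.05 CPM. CHMP1B-AS1, which overlaps CHMP1B on the other strand over 1338 bases and holds 16.4% of its 31-base words, had 0 counts in every library.

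CHMP1A, the paralogue of CHMP1B, moved the other way. NC_2 and NC_3 held 162 and 155 CPM, while SiCIRBP_1 and SiCIRBP_3 held 217 and 211 CPM. The means were 159 ± 5.14 CPM (SD, n = 2) and 214 ± 4.58 CPM (SD, n = 2), and the log2 fold change was 0.43 (standard error 0.08), or 1.35-fold higher in the SiCIRBP group. NC_1 had 177 CPM and SiCIRBP_2 had 261 CPM, so that every SiCIRBP library lay above every NC library over all 6. The fitted value over 6 libraries was 0.48 (standard error 0.13). The same separation held in TPM, with 111 to 118 TPM in the NC libraries and 134 to 145 TPM in the SiCIRBP libraries. CHMP1A lies on chromosome 16 from 89644431 to 89657845 on the minus strand.

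The opposite values raise the question of whether reads could pass between the paralogues. The beginnings of both coding sequences, read from the GENCODE 29 transcripts, are shown because they differ at many positions. Capitals mark bases that are identical in the alignment.
CHMP1A: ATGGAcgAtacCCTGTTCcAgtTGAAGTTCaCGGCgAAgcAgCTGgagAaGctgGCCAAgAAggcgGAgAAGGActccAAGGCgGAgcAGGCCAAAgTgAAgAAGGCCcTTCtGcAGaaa
CHMP1B: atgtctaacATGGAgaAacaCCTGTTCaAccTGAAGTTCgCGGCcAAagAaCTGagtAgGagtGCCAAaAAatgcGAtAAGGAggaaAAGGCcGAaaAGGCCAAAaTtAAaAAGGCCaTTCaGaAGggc
In this stretch 78 of 120 aligned bases were identical. Over the whole coding sequences, of 588 bases in CHMP1A and 597 in CHMP1B, the identity was 64.4% and the longest identical run was 11 bases. No 31-base word was shared on the same strand between any pair of members. Genes outside the family shared 6.7% of the words of CHMP1B on that strand and 0.0% of those of CHMP1A. This share was 9.65% for CHMP4B and 7.59% for CHMP5. The deposited counts of CHMP1A were whole numbers in all 6 libraries and those of CHMP1B in 4 of them (the others were 6111.68 in NC_2 and 2034.99 in SiCIRBP_1).

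The balance of the CHMP1 pair is given as a description. It contains CHMP1B, whose fall chose the family, so a shift of the ratio over the 4 libraries follows from that choice. CHMP1A over CHMP1B in TPM gave ratios of 1.02 and 0.994 for NC_2 and NC_3, and of 4.53 and 3.80 for SiCIRBP_1 and SiCIRBP_3. NC_1 had a ratio of 2.17 and SiCIRBP_2 of 2.665, so that the groups did not overlap over 6 libraries, although NC_1 was nearer to SiCIRBP_2 than to NC_2 or NC_3. The pair summed to 221 TPM in NC_2 and 224 in NC_3, and to 171 TPM in SiCIRBP_1 and 169.8 in SiCIRBP_3. Its sum was 172.5 TPM in NC_1 and 199 TPM in SiCIRBP_2, so that the sums of the groups overlapped. CHMP1B made up 15.1% and 15.4% of the TPM of the family in NC_2 and NC_3, 8.48% in NC_1, and between 4.75% and 7.75% in the SiCIRBP libraries. The corresponding share of CHMP1A was 15.4% and 15.3% in NC_2 and NC_3, 18.4% in NC_1, and between 20.65% and 22.0% in the SiCIRBP libraries. The family as a whole summed to 641, 722 and 729 TPM in NC_1, NC_2 and NC_3 and to 649, 702 and 611 TPM in SiCIRBP_1, SiCIRBP_2 and SiCIRBP_3, with overlap between the groups.

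**Figure D2:**
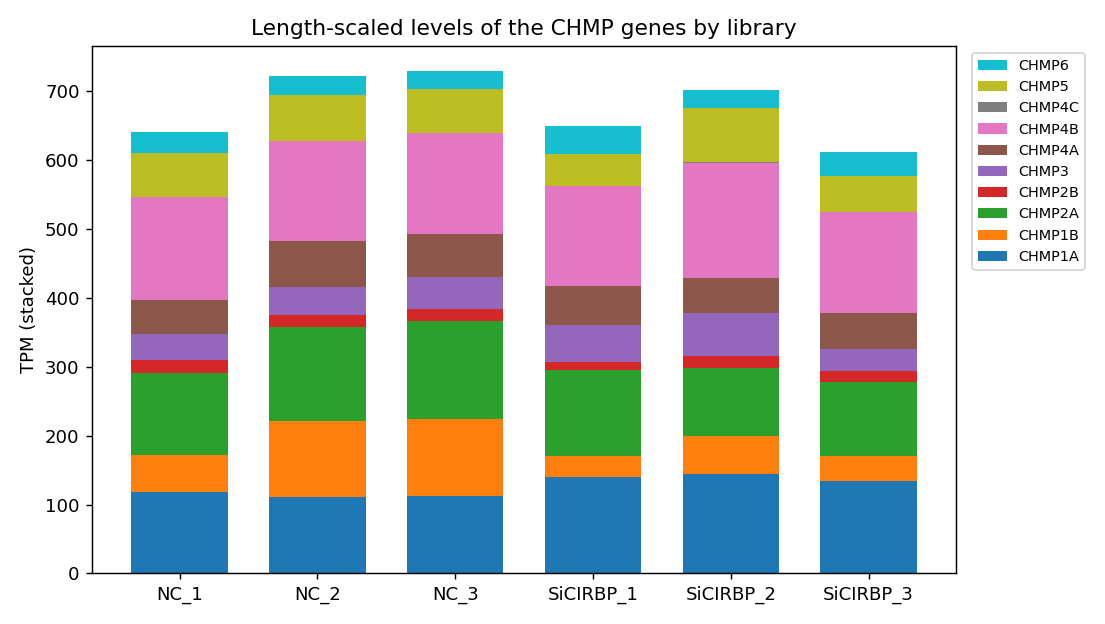
Length-scaled level (TPM, stacked) of the 10 CHMP genes in each of the 6 libraries, each colour standing for 1 gene. CHMP1B took 109 and 112 TPM of the stacks of NC_2 and NC_3 and between 30.8 and 54.4 TPM of the other 4, and CHMP4B stayed between 144 and 166.5 TPM.

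The subunit that opens the filament was also higher. NC_2 and NC_3 held 29.9 and 27.8 CPM of CHMP6, and SiCIRBP_1 and SiCIRBP_3 held 45.7 and 38.0 CPM. The log2 difference was 0.54 (standard error 0.12). In the left-out libraries it was nearly level, at 33.3 CPM in NC_1 and 33.7 in SiCIRBP_2, and the log2 fold change over 6 libraries was 0.37 (standard error 0.15). In TPM, SiCIRBP_2 (26.6) lay below NC_1 (30.85), so that the separation of the groups in CPM did not hold on that scale. CHMP6 ran most nearly opposite to CHMP1B among the members (Pearson r = -0.94 over the 6 libraries), and CHMP1A had r = -0.62, given as a description over libraries that include the 4 behind the choice.

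The filament subunits of the CHMP4 group differed little. CHMP4B was at 151 and 147 CPM in NC_2 and NC_3 and at 156 and 158 CPM in SiCIRBP_1 and SiCIRBP_3, a log2 difference of 0.07 (standard error 0.08). SiCIRBP_2 stood at 203 CPM and NC_1 at 155.8 CPM, so that the groups did not overlap in CPM, but they overlapped in TPM. CHMP4A had a log2 fold change of -0.02 (standard error 0.12), with 19.4, 26.8 and 24.6 CPM in the NC libraries and 26.7, 23.55 and 23.9 CPM in the SiCIRBP libraries. Its value is uncertain, because AL096870.2 and AL136295.1 overlap CHMP4A on the same strand and 65.2% of its 31-base words occur in another gene of that strand.

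The capping subunits and CHMP5 varied between single libraries. CHMP2A, which caps the filament, was at 63.1 and 65.3 CPM in NC_2 and NC_3 and at 61.25 and 52.3 in SiCIRBP_1 and SiCIRBP_3, a log2 difference of -0.18 (standard error 0.11). NC_1 (55.4 CPM) and SiCIRBP_2 (54.9 CPM) closed this gap. CHMP2B, mutated in a form of frontotemporal dementia, had its lowest value in SiCIRBP_1 (17.8 CPM) and its highest in SiCIRBP_2 (33.5 CPM), with the NC libraries between 24.7 and 28.5 CPM. CHMP3 ranged from 63.1 CPM in SiCIRBP_3 to 113 CPM in SiCIRBP_2, while the NC libraries lay between 74.7 and 76.6 CPM. The log2 fold change of CHMP3 over the 4 libraries was 0.06 (standard error 0.18), and it turned to -0.27 without SiCIRBP_1 and was 0.31 without SiCIRBP_3. That of CHMP2B was -0.15 (standard error 0.21), and it turned to 0.14 without SiCIRBP_1 and was -0.52 without SiCIRBP_3. CHMP3 shares 10.4% of its 31-base words with the read-through gene RNF103-CHMP3, which had at most 13.1 counts. CHMP5, which binds the VPS4 cofactor VTA1, was at 61.9 and 68.0 CPM in SiCIRBP_1 and SiCIRBP_3, below the 76.8 to 83.6 CPM of the NC libraries, but at 116 CPM in SiCIRBP_2. Its log2 fold change was -0.30 (standard error 0.10) over the 4 libraries and 0.03 (standard error 0.23) over 6. The lower level of CHMP5 over the 4 libraries was thus no longer seen with SiCIRBP_2 included.

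SiCIRBP_2 had the highest CPM of the 6 libraries for CHMP1A, CHMP2B, CHMP3, CHMP4B, CHMP4C and CHMP5. The share of all genes that were highest in SiCIRBP_2 was not counted, so nothing is read from this about the family. The same library carried a raised interferon signature. Of 20 interferon-stimulated genes, 20 were above both NC_2 and NC_3 in SiCIRBP_2, with a median log2 difference of 3.64, whereas 18 were above in SiCIRBP_3 (median 0.88) and 0 in SiCIRBP_1 (median -0.90). The summed level of these genes was between 831 and 872 TPM in the NC group and between 379 and 8625 TPM in the SiCIRBP group. The part of this signature in the values of the CHMP genes in SiCIRBP_2 was not tested.

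**Figure D3:**
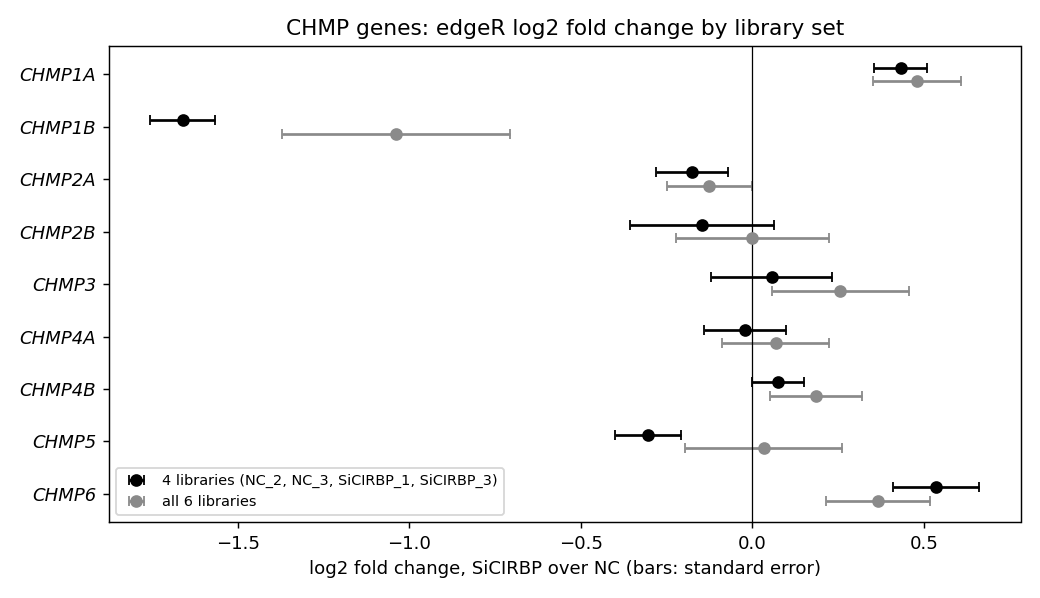
Fitted log2 fold change (SiCIRBP over NC) of the 9 CHMP genes fitted over the 4 libraries, in black for these and in grey for all 6, with bars for the standard error. CHMP1B moved from -1.66 to -1.04 and its standard error from 0.09 to 0.33, while CHMP1A stayed at 0.43 and 0.48.

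Across the genes fitted over the 4 libraries, 19.4% had an adjusted p-value under 0.05 in edgeR (9.62% higher and 9.76% lower in the SiCIRBP group), and 3.62% also differed by at least 2-fold (1.8% lower). Among the 9 members fitted, 3 passed the first threshold (CHMP1B lower, CHMP1A and CHMP6 higher) and 1 passed both (CHMP1B). These counts come from the comparison that chose the family, and nothing is read from them. The median log2 fold change was -0.02 over the 9 members and -0.002 over all genes fitted. Leaving out NC_2 or NC_3 left CHMP1B as the 1 member past the threshold, while the calls over all genes fell from 2989 to 168 and 64. Without SiCIRBP_1 or SiCIRBP_3 the members past it were 7 and 6, while the calls over all genes rose to 7048 and 6418. Over all 6 libraries, edgeR called 0 members and 0 of 15217 genes (0.0%), with 3603 genes at an unadjusted p under 0.05. DESeq2 called 1357 genes over the same libraries (9.78% of those with an adjusted p, 4.6% higher and 5.17% lower), among them CHMP1A and CHMP1B. In CPM over 6 libraries, 3 of the 10 members did not overlap between the groups (CHMP1A, CHMP4B and CHMP6, all higher in the SiCIRBP group). Of all genes fitted over 6 libraries, 32.8% did not overlap in either direction and 16.2% in that direction. Over the 4 libraries, 6 of the 9 members fitted did not overlap, against 65.5% of all genes fitted there.

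The estimated count divided by the TPM reflects the transcript length that was assigned to a gene, and it was scaled by genes with 1 annotated transcript. For CHMP1B this length was between 99.9% and 100% of the NC mean in every library. CHMP1A lay between 98.2% and 102% in the NC libraries and between 102% and 105% in the SiCIRBP libraries. CHMP4A reached 112% in SiCIRBP_1 and 96.0% in SiCIRBP_2, and CHMP3 ranged from 85.8% in SiCIRBP_2 to 107% in NC_1. With this scaling and all 6 libraries the groups overlapped for the 9 members with at least 100 counts in every library. Over the 4 libraries they were separate for CHMP1A (99.6% and 98.2% against 102% and 103%) and CHMP4A (99.7% and 101% against 112% and 108.5%). The share of all genes separate in this length was not counted, so nothing is read from such separations. In CPM, a different measure, 65.5% of all genes fitted did not overlap over the same 4 libraries. That share does not stand for separations in length. Scaled over all genes fitted, CHMP1B was also separate over 6 libraries, by a narrow margin (99.9% to 100.2% against 99.55% to 99.8%). CIRBP itself, measured in the same way, was between 98.8% and 101% in the NC libraries and between 121% and 144% in the SiCIRBP libraries.

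The other genes of the ESCRT pathway, 55 genes in 10 lists, were read from the same fit. Of these, 9 were higher and 4 lower in the SiCIRBP group at an edgeR adjusted p under 0.05 over the 4 libraries. Among all genes fitted, 9.62% were higher and 9.76% lower at that threshold (19.4% in either direction). The counts by list that follow cover few genes each. They stand beside these shares, and nothing is read from them about a list. The median log2 fold change over the 55 genes was -0.06, and none of the 13 reached 2-fold.

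ESCRT-II, the complex that hands over to CHMP6, had 2 of its 3 genes higher. VPS25, the subunit that contacts CHMP6, was between 21.5 and 22.7 CPM in the NC libraries and between 29.5 and 37.2 CPM in the SiCIRBP libraries, a log2 difference of 0.55 (standard error 0.12, edgeR adjusted p = 0.0257). SNF8 had a log2 fold change of 0.42 (edgeR adjusted p = 0.0375). VPS36, the third subunit, had a log2 fold change of -0.22 that did not pass (edgeR adjusted p = 0.157). Over all 6 libraries the groups did not overlap in CPM for any of the 3 genes, with VPS25 and SNF8 higher and VPS36 lower in the SiCIRBP group. Of all genes fitted over 6 libraries, 16.2% were higher and 16.6% lower without overlap.

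Upstream of ESCRT-II, 1 of 3 ESCRT-0 genes and 1 of 9 ESCRT-I genes passed. STAM2, a ubiquitin-binding subunit of ESCRT-0, fell by 0.44 on the log2 scale over the 4 libraries (edgeR adjusted p = 0.0413), but SiCIRBP_2 lay at 48.65 CPM, beside NC_2 at 48.6 CPM. VPS37B of ESCRT-I rose by 0.43 on that scale (edgeR adjusted p = 0.0365) and was highest in SiCIRBP_2, at 68.85 CPM. Among the bridging factors that bypass ESCRT-II, PDCD6, a calcium-binding partner of ALIX, rose by 0.61 (standard error 0.09, edgeR adjusted p = 0.0114), while PTPN23 fell by 0.38 (edgeR adjusted p = 0.025). PDCD6 was between 56.3 and 72.2 CPM in the NC libraries and between 90.5 and 102.5 CPM in the SiCIRBP libraries.

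Downstream, none of the 3 genes for taking the filament apart (VPS4A, VPS4B and VTA1) passed. VPS4A, the most abundant of them, had a log2 fold change of 0.17 (standard error 0.11, edgeR adjusted p = 0.299). Neither ESCRT-III relative passed, with IST1 at 0.07 (edgeR adjusted p = 0.562) and CHMP7 at 0.11 (edgeR adjusted p = 0.407). Of 10 partners that bind CHMP tails through a MIT domain, CAPN7 alone passed, at -0.37 (edgeR adjusted p = 0.0389). SPAST, the gene of spastin and a partner of CHMP1B, had a log2 fold change of -0.14 (standard error 0.12, edgeR adjusted p = 0.456). None of the 4 nuclear envelope and repressor partners passed, and BANF1, the most abundant, was at 0.16 (edgeR adjusted p = 0.27).

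Of 6 abscission partners, 3 were higher. BIRC5 rose by 0.71 (standard error 0.09, edgeR adjusted p = 0.00726), CDCA8 by 0.60 (edgeR adjusted p = 0.0082) and AURKB by 0.34 (edgeR adjusted p = 0.0448) on the log2 scale. All 3 belong to the chromosomal passenger complex, which holds abscission back through CHMP4C and also acts earlier in mitosis. The fourth subunit, INCENP, was at 0.25 (edgeR adjusted p = 0.0808). Of 12 endosome and lysosome genes, CD63 (0.46, edgeR adjusted p = 0.0146) and RAB5C (0.32, edgeR adjusted p = 0.0335) were higher, and EEA1, which tethers early endosomes, was lower (-0.58, edgeR adjusted p = 0.0347). Over all 6 libraries none of the 55 genes passed in edgeR, where no gene of the whole table passed either. In DESeq2 over these libraries 7 passed (VPS25, PDCD6, BIRC5, CDCA8, EEA1, CD63 and VPS37B), with DESeq2 adjusted p-values between 0.00717 and 0.0454. Of all genes with an adjusted p-value in that DESeq2 fit, 9.78% passed, and nothing is read from the count of 7.

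**Figure D4:**
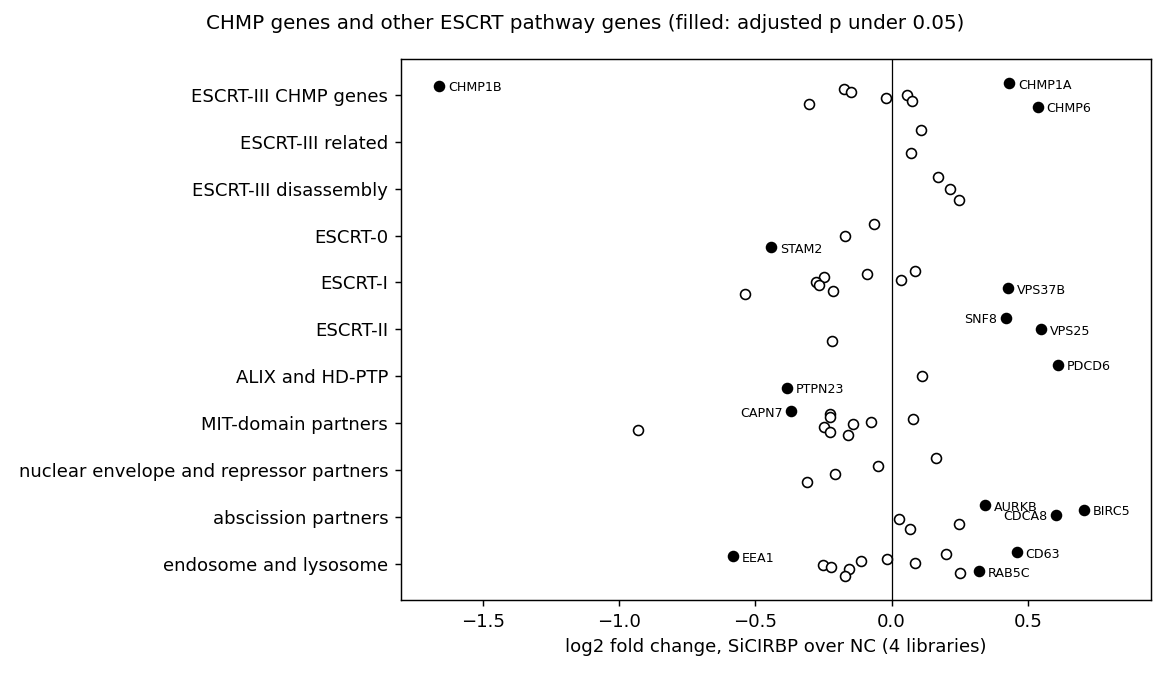
Log2 fold change (SiCIRBP over NC, 4 libraries) of each CHMP gene and of 55 other ESCRT pathway genes by list, each point 1 gene, filled and named where the edgeR adjusted p was under 0.05. CHMP1B at -1.66 was the lowest of the genes shown, and the other named points lay between -0.58 and 0.71.

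The genes whose log2(CPM + 1) followed CHMP1B most closely over the 6 libraries were NCOA7 (Pearson r = 0.996), MORC3 (0.993), NEMP2 (0.993), OXR1 (0.993) and C1orf43 (0.992), among 15216 genes. With 6 libraries such values are easily reached, and 23 genes had an r above 0.98. NCOA7, a TLDc-domain protein of the endolysosomal system, was at 63.1 CPM in NC_1, 115 in NC_2 and 131 in NC_3, and at 37.2, 71.6 and 43.7 CPM in SiCIRBP_1, SiCIRBP_2 and SiCIRBP_3. It shared with CHMP1B the low value in NC_1 and the higher one in SiCIRBP_2, and its log2 fold change over the 4 libraries was -1.60. C1orf43 had the same order of groups with a log2 fold change of -0.33. A search for the cAMP response element of CHMP1B gave no match for NCOA7, MORC3, NEMP2, OXR1 or C1orf43. Whether each of them has an entry in the promoter table was not recorded. No other CHMP gene was near this pattern, and the highest r among the members was 0.60, for CHMP2A.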

How the data were processed

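RNA-seq of 6 libraries was analysed from the deposited table. Per the labels, the authors' processing used fastp, HISAT and RSEM with build hg38. Their versions and the annotation are not given in the sources used here. The authors deposited an estimated count per gene, not normalized and not always whole, and a TPM value scaled by length and library. Further columns hold fold changes and p-values from the authors' DESeq2 comparisons and were not used.

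Estimated counts were rounded and fitted over the whole table with edgeR 4.0.16 (R 4.3.3; TMM, filterByExpr, glmQLFit and glmQLFTest), with Benjamini-Hochberg adjustment and a threshold of 0.05. Standard errors were obtained from the fold change and the F statistic (log2 value over root F). CPM values use TMM factors over 6 libraries. Locations and transcripts came from GENCODE 29 and promoters from RefSeq (GRCh38.p14). The family and all gene lists were chosen with earlier results of these data known. Named are the members, the neighbours of CHMP1B, from each pathway list up to 4 genes past the threshold or else the most abundant, and the 5 genes most like CHMP1B. VPS36, CHMP7, SPAST and INCENP were added after their values were seen. On simulated counts for 15421 genes with 200 changed by a log2 of 1.5, the 4-library fit recovered 91% of them with 9 false calls. The 6-library fit, simulated in the same way for 15217 genes, recovered 98% with 7 false calls. The simulation gave every gene the same dispersion and held no library that stood apart. Its recovery therefore does not carry over to the deposited libraries. Alternatives were DESeq2 1.42.0, RLE factors, other filters, all 6 libraries with and without a replicate block, and each library left out. The fits over 5 libraries were added after seeing the data.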

Additional observations from a re-analysis of the deposited data

How the results depend on the processing

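The direction of CHMP1B was lower in the SiCIRBP group under every alternative run. All of these runs used libraries behind the choice of the family, so this direction was largely set by that choice. CHMP1B was higher in SiCIRBP_2 than in NC_1, the left-out libraries, by 0.23 on the log2 scale. Its log2 fold change of -1.66 moved to -1.04 over all 6 libraries (edgeR and DESeq2 both gave -1.04), to -1.03 with the replicate block over these libraries, to -1.40 with NC_1 added and to -1.30 with SiCIRBP_2 added, and lay between -1.77 and -1.57 with each of the 4 libraries left out. The number of members past the threshold, 3, became 0 over all 6 libraries, 0 with the replicate block, 0 with SiCIRBP_2 added, and 1 to 7 with a library left out. The 13 other pathway genes became 0 over all 6 libraries, 0 with the block, 7 in DESeq2 over 6, 3 with NC_1 added, 0 with SiCIRBP_2 added, and 0 to 31 with a library left out. All genes called, 2989 over the 4 libraries, became 0 over 6, 1 with the block, 1357 in DESeq2 over 6, 1118 with NC_1 added, 18 with SiCIRBP_2 added, 4615 with no filter, and 64 to 7048 with a library left out. The lone library of a group is assumed to vary like the others in those fits, and the cause was not tested. Same-numbered libraries showed little shared deviation (correlations across genes of -0.118, 0.00605 and -0.0264), and the numbers were not taken as pairs. With few libraries, and with NC_1 and SiCIRBP_2 apart from their groups, such a check could miss a pairing. Of the fold changes of the other members and the transcript lengths under alternatives, 92 moved by less than the spread between libraries and 29 by more. CHMP1A and CHMP6 stayed higher in the SiCIRBP group in all of those run, while CHMP2B, CHMP3, CHMP4A, CHMP4B and CHMP5 changed sign in some. At the counts of CHMP4C a difference could not be measured.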
